A study of Mus musculus with 7 samples.

Results

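Sphingomyelin is the phosphocholine-bearing relative of ceramide, and the genes described here are those that make it, break it down or handle the ceramide on either side of it. The 7 genes were the sphingomyelin synthases Sgms1 and Sgms2, the sphingomyelinases Smpd1, Smpd2 and Smpd3, the ceramide transfer protein gene Col4a3bp (now named Cert1) and the ceramide kinase gene Cerk. They were taken by name from the probes of the arrays: 5 carried their own symbol, while Sgms1 was listed as Tmem23 and Sgms2 under a pair of clone names, so these 2 were found through their accession or older name. They had 15 of the 41174 probes, of which 14 were bright enough to keep, and all 7 were among the 17129 genes kept. Skin was taken from the back of hairless HR-1 mice, all male and 5 weeks old, that ate an AIN-93G diet with or without glucosylceramide (GC), a ceramide that carries a sugar. The groups were GC-fed skin after SDS (4 samples), control-fed skin after SDS (4), GC-fed skin before SDS (3) and control-fed skin before SDS (3). Skin after SDS had been treated, on the right side of the back, with 10% sodium dodecyl sulfate, a detergent that strips barrier lipids, for 5 minutes on each of 2 days, and was taken at day 14 of the diet, whereas skin before SDS was taken at day 12, so SDS and 2 more days of diet cannot be told apart. Each of 7 arrays held 1 GC-fed and 1 control-fed sample in the Cy3 and Cy5 dyes. The labels call the replicates biological without saying whether each was 1 mouse, so p-values measure the spread between these samples only.

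The synthases move phosphocholine from phosphatidylcholine to ceramide and release diacylglycerol. Ceramide reaches Sgms1 in the Golgi through the transfer protein that Col4a3bp encodes, and Sgms2 works mainly at the plasma membrane. Sphingomyelinases break sphingomyelin down and free ceramide again: Smpd1 is the acid enzyme of lysosomes, Smpd2 and Smpd3 are neutral enzymes of other membranes. In the epidermis, acid sphingomyelinase turns sphingomyelin delivered by lamellar bodies into part of the ceramide of the barrier, the rest of which comes largely from glucosylceramide. Cerk competes for the same ceramide by phosphorylating it.

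Promoter windows are shown for the 3 genes called lower after SDS over both diets, a choice made from these same data. Whether these genes share regulation was not tested. RefSeq's table (GRCm38.p6, 300 bases around each start, most of them upstream) held windows for 6 of the 7 genes, 14 starts in all. The Cerk window lies at chr15:86186092-86186391 on the minus strand, the Cert1 window at chr13:96542485-96542784 on the plus strand and the Sgms1 window, the most upstream of its 4 starts, at chr19:32388463-32388762 on the minus strand. Capitals mark the GC box GGGCGG on either strand.
Cerk promoter: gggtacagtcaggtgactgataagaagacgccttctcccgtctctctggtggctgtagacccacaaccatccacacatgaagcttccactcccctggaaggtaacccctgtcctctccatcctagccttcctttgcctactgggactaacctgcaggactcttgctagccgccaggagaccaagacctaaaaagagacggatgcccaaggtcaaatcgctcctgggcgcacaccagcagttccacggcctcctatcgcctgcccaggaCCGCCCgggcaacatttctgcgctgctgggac
Cert1 promoter: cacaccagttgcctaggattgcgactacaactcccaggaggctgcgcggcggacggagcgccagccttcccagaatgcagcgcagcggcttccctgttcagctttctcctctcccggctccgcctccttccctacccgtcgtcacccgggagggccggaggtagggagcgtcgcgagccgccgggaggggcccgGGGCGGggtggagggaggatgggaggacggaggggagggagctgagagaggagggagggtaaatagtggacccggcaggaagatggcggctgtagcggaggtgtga
Sgms1 promoter: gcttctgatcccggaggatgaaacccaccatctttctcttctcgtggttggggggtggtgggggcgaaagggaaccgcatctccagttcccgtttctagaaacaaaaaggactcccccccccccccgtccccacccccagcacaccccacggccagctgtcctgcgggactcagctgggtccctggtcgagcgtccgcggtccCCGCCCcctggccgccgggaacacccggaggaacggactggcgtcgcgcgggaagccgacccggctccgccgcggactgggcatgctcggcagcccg
Each of these windows held 1 GC box, and none of the 3 held a CCAAT box, a TATA box (TATAAA), an E-box (CACGTG) or an AP-1 motif (TGANTCA), all searched on both strands. Across the members, 9 of 14 starts held the GC box, beside 35.7% of all 32851 windows of the table. All 6 matched genes had at least 1 such start, but Sgms2 had 6 starts and Sgms1 4. The share of all genes with at least 1 such start was not computed. The CCAAT box stood in 4 of the 14 starts (37.4% of all windows), the TATA box in 1 (13.6%), the E-box in 2 (7.15%) and the AP-1 motif in 3 (7.81%). The TATA box was in a start of Sgms1 that is not printed, and another such start of Sgms1 held a CCAAT box and an AP-1 motif. Cerk and Cert1 have GC contents of 58.3% and 68.3% in these windows, and the printed Sgms1 window one of 69.3%. These are matches of letters and show no binding.

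The arrays read skin. Keratinocyte markers, suprabasal (10 of 10) and basal (8 of 8), were well above background in all 14 channels, and so were 11 of 11 markers of skeletal muscle. Between 48.5% and 62.8% of the spots on an array were well above background in a channel, and no spot was saturated. Levels are log2 intensities after normalisation; they set samples against each other for 1 probe, not 1 probe against another. The before-SDS arrays shared 1 slide and the after-SDS arrays another, with 0 of 2 slides holding both, so SDS and slide cannot be told apart. The labels state the dye of each sample, and after-SDS array 4 nevertheless ran against its fellows: over all genes the r of its GC-fed to control-fed ratio was -0.50 with array 1, -0.62 with array 2 and -0.30 with array 3, while those 3 had r of 0.31 to 0.50 among themselves. Before-SDS arrays 1 and 2, of opposite dye orientation, had r = -0.41. The diet results after SDS, and Cerk's SDS change within each diet, are therefore also given without after-SDS array 4 and with its direction turned.

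On its brightest probe, Cerk read lower in SDS-treated skin than in untreated skin, in every sample and on both diets. Its dim second probe did not, with a log2 fold change of 0.07 (limma adjusted p over all probes = 0.408), and is described below. The values that follow are those of the brightest probe. Cerk read 10.09, 10.09, 9.94 and 10.43 in GC-fed skin after SDS, and 10.68, 10.70 and 10.57 in GC-fed skin before SDS. It read 10.23, 10.28, 10.30 and 10.00 in control-fed skin after SDS, and 10.69, 10.64 and 10.79 in control-fed skin before SDS. All 8 samples taken after SDS were below all 6 taken before it, with group means of 10.17 ± 0.17 (SD, n = 8) after SDS and 10.68 ± 0.07 (SD, n = 6) before SDS. Over both diets the log2 fold change of Cerk was -0.51 (SE 0.08, limma adjusted p = 0.000629), a level 0.703 times that before SDS. Of the 7 genes, each on its brightest probe, Cerk was the 1 whose levels after and before SDS did not overlap. Of all genes 11.1% had such levels. In RNA from whole skin, fewer cells of a type and less RNA per cell cannot be told apart.

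In all, 3 of the 7 genes passed the test (adjusted p under 0.05) for SDS over both diets and all 3 fell: Cerk, Sgms1 and Col4a3bp. Among the 17129 genes, 33.9% passed in either direction and 17.3% passed as lower after SDS. The median log2 fold change was -0.24 over the 7 genes and 0.00 over all genes. The order of the 4 group means of Cerk was 10.14 in GC-fed and 10.20 in control-fed skin after SDS, then 10.65 in GC-fed and 10.71 in control-fed skin before SDS. The diets differed by less than the SD of either group at each time (0.21 and 0.14 after SDS, 0.07 and 0.08 before it), and the step between times exceeded them.

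**Figure D1:**
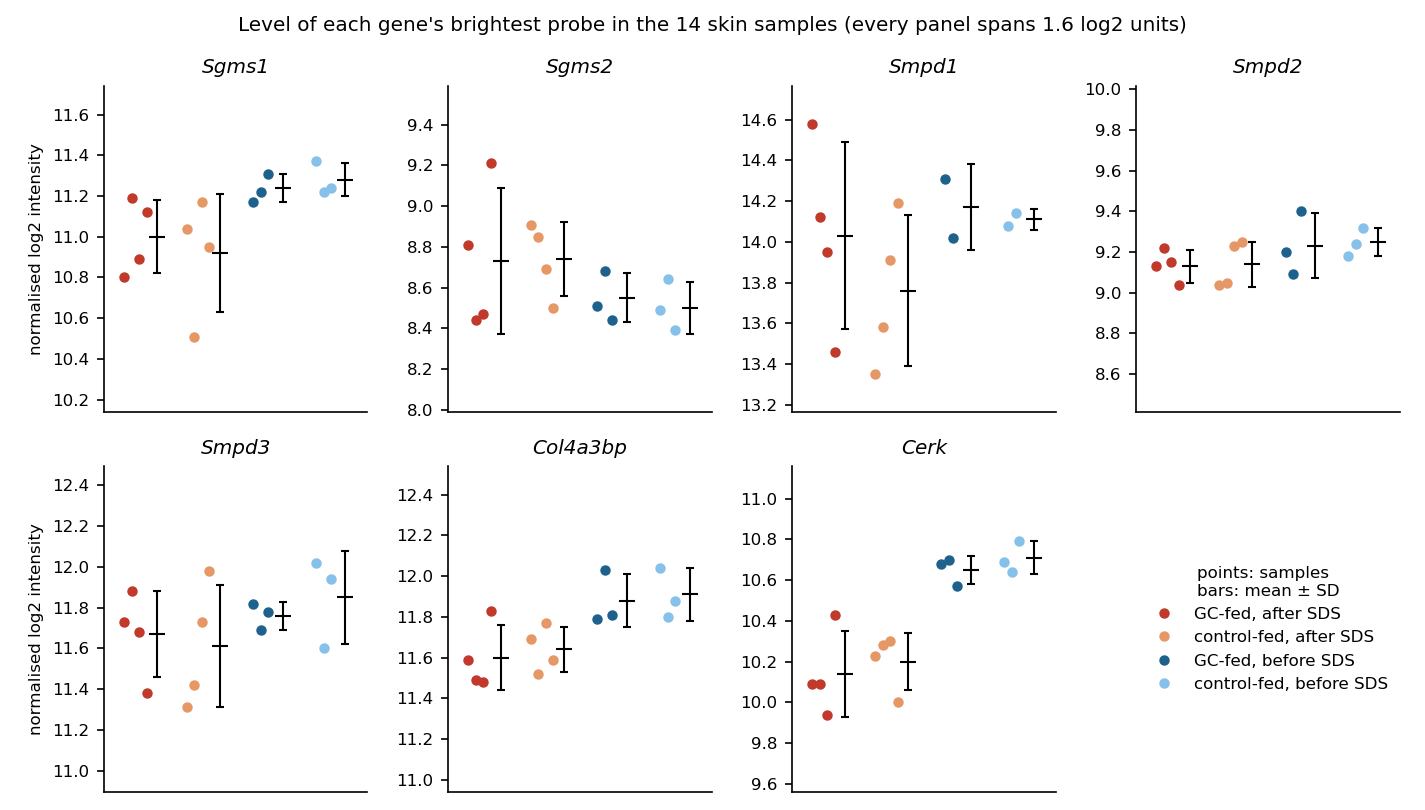
Normalised log2 intensity of the brightest probe of each gene (vertical axis, 1.6 log2 units in every panel) in GC-fed and control-fed skin after SDS (left) and before SDS (right); points are samples and bars are mean ± SD. Cerk reads 9.94 to 10.43 after SDS, below 10.57 to 10.79 before SDS, whereas Smpd1 spreads from 13.35 to 14.58 after SDS.

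Sgms1, the Golgi sphingomyelin synthase, fell after SDS. It read 10.80, 11.19, 10.89 and 11.12 in GC-fed and 11.04, 10.51, 11.17 and 10.95 in control-fed skin after SDS. Before SDS it read 11.17, 11.22 and 11.31 in GC-fed and 11.37, 11.22 and 11.24 in control-fed skin. The sets overlapped by the GC-fed sample of after-SDS array 2, and the other 7 of 8 samples after SDS were at or below the lowest before it. The log2 fold change of Sgms1 was -0.30 (SE 0.10, adjusted p = 0.0349), and means were 10.96 ± 0.23 (SD, n = 8) after SDS and 11.26 ± 0.07 (SD, n = 6) before SDS. The adjusted p exceeded 0.05 in 11 of 18 alternatives. These included leaving out before-SDS array 1, 2 or 3 (0.119, 0.0998 and 0.0907) and after-SDS array 1, 3 or 4 (0.0531, 0.0684 and 0.0794). They also included the scanner software's own processed signals (log2 fold change -0.17, adjusted p = 0.231) and the authors' deposited table (-0.18, adjusted p = 0.148). The others were no filter on dim probes (0.0752), after-SDS array 4 turned (0.062) and array numbers as a replicate block (0.0666). Every value of the fold change stayed between -0.35 and -0.17 over the 18 alternatives.

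Col4a3bp, whose protein carries ceramide from the endoplasmic reticulum to the Golgi, also fell on its brightest probe. It read 11.59, 11.49, 11.48 and 11.83 in GC-fed and 11.69, 11.52, 11.77 and 11.59 in control-fed skin after SDS. Before SDS it read 11.79, 12.03 and 11.81 in GC-fed and 12.04, 11.80 and 11.88 in control-fed skin. Of the 8 samples after SDS, 7 were below all those before SDS, and the GC-fed sample of after-SDS array 4 lay inside the earlier range. The log2 fold change was -0.27 (SE 0.07, adjusted p = 0.0107). Without before-SDS array 1 it was -0.26 with an adjusted p of 0.0607, and from the authors' deposited table it was -0.14 with an adjusted p of 0.152.

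Sgms2, the plasma membrane synthase, had the opposite sign to Sgms1 and did not pass. It read 8.44 to 9.21 in the samples after SDS (median 8.75) and 8.39 to 8.68 in those before SDS (median 8.50), and 5 of the 8 later samples were above every earlier one. Its log2 fold change of 0.21 had a 95% interval of -0.03 to 0.45 (adjusted p = 0.163). In the authors' deposited table Sgms2 stood at 200 in both channels of 4 of the 7 arrays, a floor, so that table orders few of its samples.

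None of the 3 sphingomyelinase genes passed the test for SDS. Smpd1, the acid enzyme, read 14.58, 14.12, 13.95 and 13.46 in GC-fed and 13.35, 13.58, 13.91 and 14.19 in control-fed skin after SDS. Before SDS it read 14.31 and 14.02 in GC-fed and 14.08 and 14.14 in control-fed skin; the spot of before-SDS array 3 had been marked as uneven by the scanner software and was left out, which left 2 arrays. The samples after SDS thus lay on both sides of those before it, and the log2 fold change was -0.24 (95% interval -0.54 to 0.05, adjusted p = 0.175). The marked spot decided the sign: it read 13.23 in the GC-fed and 12.74 in the control-fed channel, below every other sample, and with it kept the fold change was 0.15 (adjusted p = 0.666). The authors' deposited table, which holds a value for that array, gave 0.14 (adjusted p = 0.563), with a diet ratio of -0.02 on that array.

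Smpd2 is a neutral sphingomyelinase. Its levels ran between 9.04 and 9.25 after SDS and between 9.09 and 9.40 before SDS, and its log2 fold change of -0.10 had a 95% interval of -0.22 to 0.02 (adjusted p = 0.184). Smpd3, the other neutral enzyme, ran between 11.31 and 11.98 after SDS and between 11.60 and 12.02 before SDS. Its log2 fold change was -0.17 (95% interval -0.39 to 0.06, adjusted p = 0.224), and the sets overlapped. Each interval holds values on both sides of no change, so these arrays settle neither a change of Smpd2 or Smpd3 nor its absence.

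Where a gene had several probes, they did not always read alike. Taken one by one, 5 of the 14 kept probes passed for SDS over both diets over all 25196 probes tested, of which 30.8% passed. Both Sgms1 probes fell, with log2 fold changes of -0.30 and -0.41 (adjusted p = 0.0407 and 0.00139). Both Sgms2 probes, the brighter made from a clone sequence and the dimmer from a RefSeq transcript, gave 0.21, with adjusted p = 0.175 and 0.157.

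The Col4a3bp probes went different ways. Its brightest probe, made from a clone sequence, gave -0.27 (adjusted p = 0.0124), a dimmer one from another clone gave 0.15 (adjusted p = 0.0205) and the one made from the RefSeq transcript gave 0.00 (adjusted p = 0.959). The rising probe read 7.99 to 8.09 after SDS and 7.79 to 7.94 before SDS, without overlap, but at the raw intensities of 196 to 266 it spanned, against 1530 to 6690 for the brightest, its range is narrow. The fourth Col4a3bp probe was well above background in 0 of 14 channels and was not tested. A mean over the kept probes of Col4a3bp gave -0.04 (adjusted p = 0.52), so the call of Col4a3bp was made on its brightest probe alone.

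The dim second probe of Cerk, with raw intensities of 181 to 267 against 609 to 2540, gave 0.07 (95% interval -0.07 to 0.22, adjusted p = 0.408). Both probes were made from the same RefSeq transcript and were well above background in all 14 channels. The second read 7.63 to 8.08 after SDS and 7.74 to 7.92 before SDS, with overlap. The mean of both Cerk probes was -0.22 (adjusted p = 0.0261). That mean includes the brightest probe and is no separate reading, so the call of Cerk was also made on its brightest probe alone. Of the 3 Smpd3 probes the brightest gave -0.17, a second gave 0.35 (95% interval 0.01 to 0.69, adjusted p = 0.11) and the dimmest -0.05. The files hold no probe sequences, so which transcripts a probe reads was not tested.

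**Figure D2:**
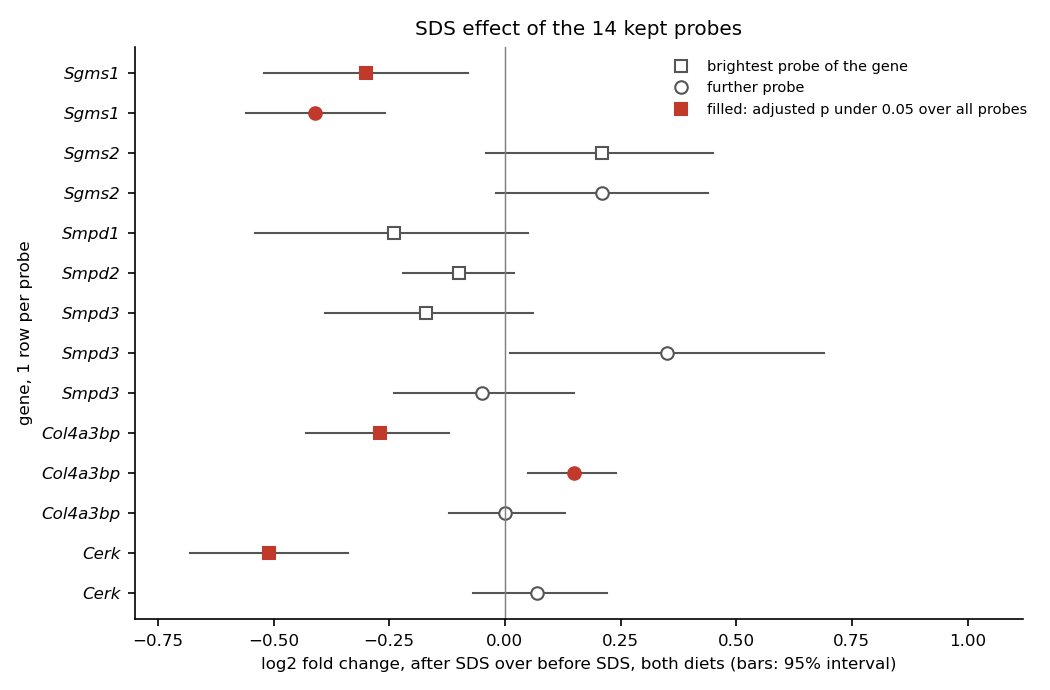
Log2 fold change of each of the 14 kept probes after SDS over before SDS, both diets together (horizontal axis), with its 95% interval; squares are the brightest probe of a gene, circles the others, and filled symbols have an adjusted p under 0.05 over all probes. Both Sgms1 probes lie left of 0, while the Col4a3bp probes run from -0.27 to 0.15 and the Smpd3 probes from -0.17 to 0.35.

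Within each diet Cerk was the 1 gene of the 7 that passed for SDS. In GC-fed skin its log2 fold change was -0.51 (SE 0.11, adjusted p = 0.014), where 13.4% of all genes passed and 7.13% passed as lower. In control-fed skin it was -0.51 (SE 0.11, adjusted p = 0.0114), where 14.8% of all genes passed and 8.03% passed as lower. The diet effect on Cerk after minus before SDS was 0.00 in the ratio fit (95% interval -0.48 to 0.49, adjusted p = 1). The equal values for the diets depended on after-SDS array 4. Without it Cerk was at -0.63 in GC-fed and -0.41 in control-fed skin, with a difference of -0.22 (adjusted p = 0.518), and with it turned at -0.64 and -0.38, with a difference of -0.27 (adjusted p = 0.418). Without after-SDS array 3 the difference was 0.18 (adjusted p = 1). The calls rested on few arrays and on the brightest probe: in GC-fed skin the adjusted p rose to 0.081, 0.0742 and 0.0538 without before-SDS array 1, before-SDS array 2 or after-SDS array 3, and in control-fed skin to 0.0871 and 0.0566 without before-SDS array 1 or 3. The fold change of Cerk without those arrays lay between -0.56 and -0.40. With the mean of both Cerk probes it was -0.26 (adjusted p = 0.0933) in GC-fed and -0.17 (adjusted p = 0.229) in control-fed skin. With such means Sgms1 passed instead in control-fed skin (-0.38, adjusted p = 0.0448), when 12.7% of all genes passed.

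The other genes did not pass in either diet. Col4a3bp was at -0.27 in GC-fed (adjusted p = 0.0956) and -0.28 in control-fed skin (adjusted p = 0.0779). Sgms1 was at -0.24 in GC-fed (adjusted p = 0.275) and -0.35 in control-fed skin (adjusted p = 0.105), and Sgms2 at 0.21 in both. Smpd1 was at -0.14 (SE 0.19) in GC-fed and -0.35 (SE 0.19) in control-fed skin. With the direction of after-SDS array 4 turned, 2 genes passed in GC-fed skin (Cerk, and Col4a3bp at -0.32) and 4 in control-fed skin (Cerk, Sgms2 at 0.39, Smpd1 at -0.46 and Smpd3 at -0.35), when 18.8% of all genes passed in GC-fed and 25.4% in control-fed skin. Col4a3bp also passed beside Cerk in GC-fed skin without after-SDS array 4 (-0.35, adjusted p = 0.0454), when 15.9% of all genes passed. It did so too in control-fed skin without after-SDS array 3 (-0.36, adjusted p = 0.0299), when 12.2% of all genes passed.

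GC in the diet changed none of the 7 genes by the test, before or after SDS. Of all genes 0% passed for diet after SDS, 0% for diet before SDS and 0% for the difference between them, with 764, 68 and 207 genes at an unadjusted p under 0.05. Smpd1 had the widest ratios of GC-fed over control-fed skin: 1.23, 0.54, 0.04 and -0.73 (log2) on after-SDS arrays 1 to 4. Arrays 1 and 2 were high for GC, array 3 level and array 4 low, and the mean difference was 0.27 (95% interval -0.21 to 0.75, adjusted p = 0.835). Before SDS the Smpd1 ratios were 0.24 and -0.13, and the difference 0.05 (95% interval -0.63 to 0.73).

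Smpd3 was likewise high for GC on after-SDS arrays 1 and 2 and low on array 4, at 0.42, 0.45, -0.04 and -0.60. Its fitted difference was 0.06 (95% interval -0.30 to 0.42, adjusted p = 0.933). Sgms2 ran the other way, at -0.09, -0.42, -0.22 and 0.71, with a fitted difference of -0.01 (95% interval -0.38 to 0.37). Cerk also changed sign on array 4, at -0.14, -0.19, -0.36 and 0.43, with a fitted difference of -0.06 (95% interval -0.38 to 0.25). On array 4 Sgms2 and Cerk were higher, and Smpd1 and Smpd3 lower, in GC-fed skin by more than on any before-SDS array.

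Sgms1 read -0.24, 0.68, -0.28 and 0.17 on after-SDS arrays 1 to 4, Col4a3bp -0.10, -0.03, -0.29 and 0.23, and Smpd2 0.08, 0.18, -0.08 and -0.21. Their fitted differences were 0.08, -0.05 and -0.01, with 95% intervals of -0.30 to 0.47, -0.30 to 0.20 and -0.17 to 0.16. Before SDS, all 20 ratios of the 7 genes lay between -0.25 and 0.24, and the fitted differences between -0.07 (Cerk) and 0.05 (Smpd1). The difference of the diet effect after minus before SDS was at most 0.21, for Smpd1 (95% interval -0.62 to 1.05), and that value was not stable. It was -0.06 with the marked spot of before-SDS array 3 kept, which also moved the Smpd1 diet effect before SDS to 0.33, and -0.22 or 0.64 without before-SDS array 1 or 2. It was 0.99 with the replicate block, 0.44 without after-SDS array 4 and 0.42 with that array turned. For Smpd3 the difference was 0.09, against 0.32 without array 4 and 0.37 with it turned. None of these passed.

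Without after-SDS array 4 no gene of the 7 passed for diet, with Smpd1 at 0.49 (adjusted p = 0.134), Cerk at -0.25 (0.129), Sgms2 at -0.24 (0.149) and Smpd3 at 0.25 (0.25), although 924 of all genes then passed. With its direction turned, the values were 0.48 (adjusted p = 0.069) for Smpd1, -0.30 (0.0524) for Cerk, -0.33 (0.0808) for Sgms2 and 0.31 (0.113) for Smpd3, and again none passed, against 1838 of all genes. Turning that array also moved Sgms1 to -0.02 and Smpd2 to 0.06.

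**Figure D3:**
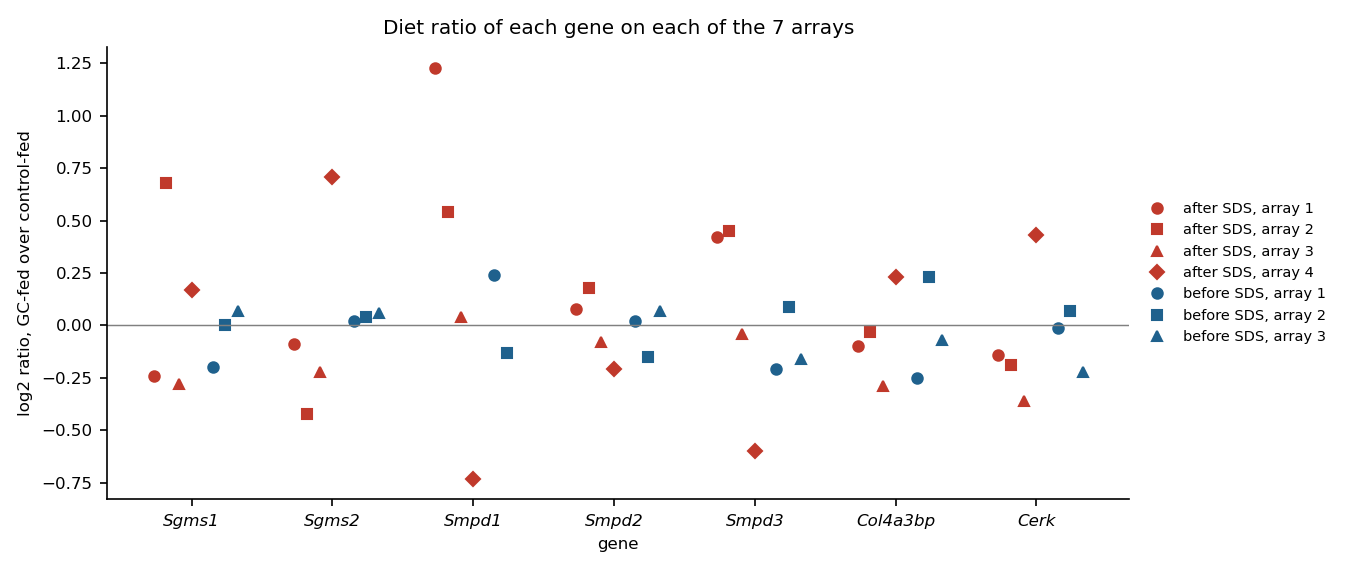
Diet ratio (vertical axis, log2, GC-fed to control-fed) of each gene on each array, after-SDS arrays in red to the left and before-SDS arrays in blue to the right. The after-SDS ratios of Smpd1 span -0.73 to 1.23 and array 4, the diamond, has the opposite sign to arrays 1 and 2 for every gene but Sgms1.

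Markers of some of the skin's cell types changed sign on after-SDS array 4 as these ratios did, and others did not. Suprabasal keratinocyte markers had median log2 ratios of 1.14, 0.66, 0.72 and -0.81 on after-SDS arrays 1 to 4, basal keratinocyte markers 0.43, 0.34, 0.50 and -0.22, and macrophage and monocyte markers -0.88, -0.73, -1.23 and 0.67. Neutrophil markers were at -0.38, -0.70, -0.97 and 1.23. Skeletal muscle markers (-1.19, -0.38, -1.35 and -0.22) and adipocyte markers (-0.48, -0.45, -0.96 and -0.19) kept their sign on array 4. Hair follicle markers were at -0.61, 0.11, 1.14 and -0.16, fibroblast markers at -0.04, 0.12, 0.25 and 0.45, sebaceous gland markers at 0.15, -0.03, 0.13 and -0.17, and nerve markers at -0.07, 0.13, 0.03 and -0.09. None of the markers passed for diet, and the part of these cell types in the ratios of the 7 genes was not tested.

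Some markers passed for SDS over both diets, where 33.9% of all genes passed in either direction and 17.3% passed as lower. The counts below are of markers that passed. Of the hair follicle markers 8 of 9 measured were higher after SDS (median log2 fold change 1.10), with a summed log2 level of 17.29 to 18.55 after SDS and 15.85 to 18.48 before SDS. Of the neutrophil markers 3 of 6 were higher (median 0.59), with sums of 13.01 to 15.53 after SDS and 12.94 to 14.15 before SDS. Of the basal keratinocyte markers 5 of 8 were lower (median -0.26), with sums of 17.81 to 18.59 after SDS and 18.02 to 18.50 before SDS, and of the suprabasal markers 2 of 10 were lower (median -0.14). Of the sebaceous gland markers 3 of 7 were lower and 1 higher, and of the skeletal muscle markers 2 of 11 were higher and 1 lower. Of the adipocyte markers 2 of 8 were higher. In the fibroblast list 1 of 7 was lower, and in the macrophage and nerve lists 1 of 10 and 1 of 6 were higher. The neutrophil marker Ngp was well above background in 0 of 14 channels. The part of these cells in the changes of Cerk, Sgms1 and Col4a3bp was not tested.

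The rest of the ceramide pathway was read from 5 lists of 59 genes, of which 52 were measured. After SDS 27 of them passed, 8 higher and 19 lower, beside the 33.9% of all genes that passed and the 17.3% that passed as lower, with a median log2 fold change of -0.13 beside 0.00 for all genes. For diet 0 of 52 passed after SDS and 0 before SDS. The counts given below for each list are of genes that passed for SDS over both diets.

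Of the genes that supply ceramide to the synthases, 8 of 16 passed as lower and 1 as higher (median -0.20). By sign alone, 12 were below 0 and 4 above. Cers5, a ceramide synthase, fell by 0.82 on the log2 scale (SE 0.09, adjusted p = 0.000133), Fa2h, which hydroxylates the fatty acid, by 0.93 (SE 0.21, adjusted p = 0.00532), and Sptlc3, a subunit of serine palmitoyltransferase, by 0.49 (SE 0.11, adjusted p = 0.00554). Sptssb, a small subunit of the same first enzyme, rose with a log2 fold change of 0.88 (SE 0.18, adjusted p = 0.00298).

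The partners and regulators of the ceramide transfer protein split: of 11 measured, 4 rose and 2 fell (median 0.02). Vapa and Vapb, the endoplasmic reticulum anchors that hold the transfer protein, went opposite ways, at 0.38 (SE 0.06, adjusted p = 0.000595) and -0.41 (SE 0.12, adjusted p = 0.021). Ppm1l, a phosphatase that keeps the transfer protein active, rose at 0.41 (SE 0.06, adjusted p = 0.000454), and Osbp, the oxysterol-binding protein that acts at the same contact sites, fell at -0.31 (SE 0.04, adjusted p = 0.000403). Among the related hydrolases and synthase relatives 1 of 6 passed: Samd8, which makes the ceramide phosphoethanolamine counterpart of sphingomyelin, rose at 0.21 (SE 0.06, adjusted p = 0.0118).

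Of the genes that use ceramide for glucosylceramide and other products, 3 of 9 fell and 1 rose (median -0.13). Gltp, the glycolipid transfer protein, was at -0.70 (SE 0.12, adjusted p = 0.0011), Gba2, a non-lysosomal glucosylceramidase, at -0.34 (SE 0.10, adjusted p = 0.02), and Cptp, which carries the ceramide 1-phosphate that Cerk makes, at -0.29 (SE 0.08, adjusted p = 0.0184). B4galt6, a lactosylceramide synthase, rose at 0.29 (SE 0.10, adjusted p = 0.0332). Of the ceramidases and sphingosine phosphate enzymes 6 of 10 fell and 1 rose (median -0.33), among them the ceramidases Acer2 at -0.64 (SE 0.07, adjusted p = 0.000139) and Acer1 at -0.61 (SE 0.14, adjusted p = 0.00588), the sphingosine phosphate phosphatase Sgpp2 at -0.56 (SE 0.08) and the sphingosine kinase Sphk2 at -0.41 (SE 0.05).

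**Figure D4:**
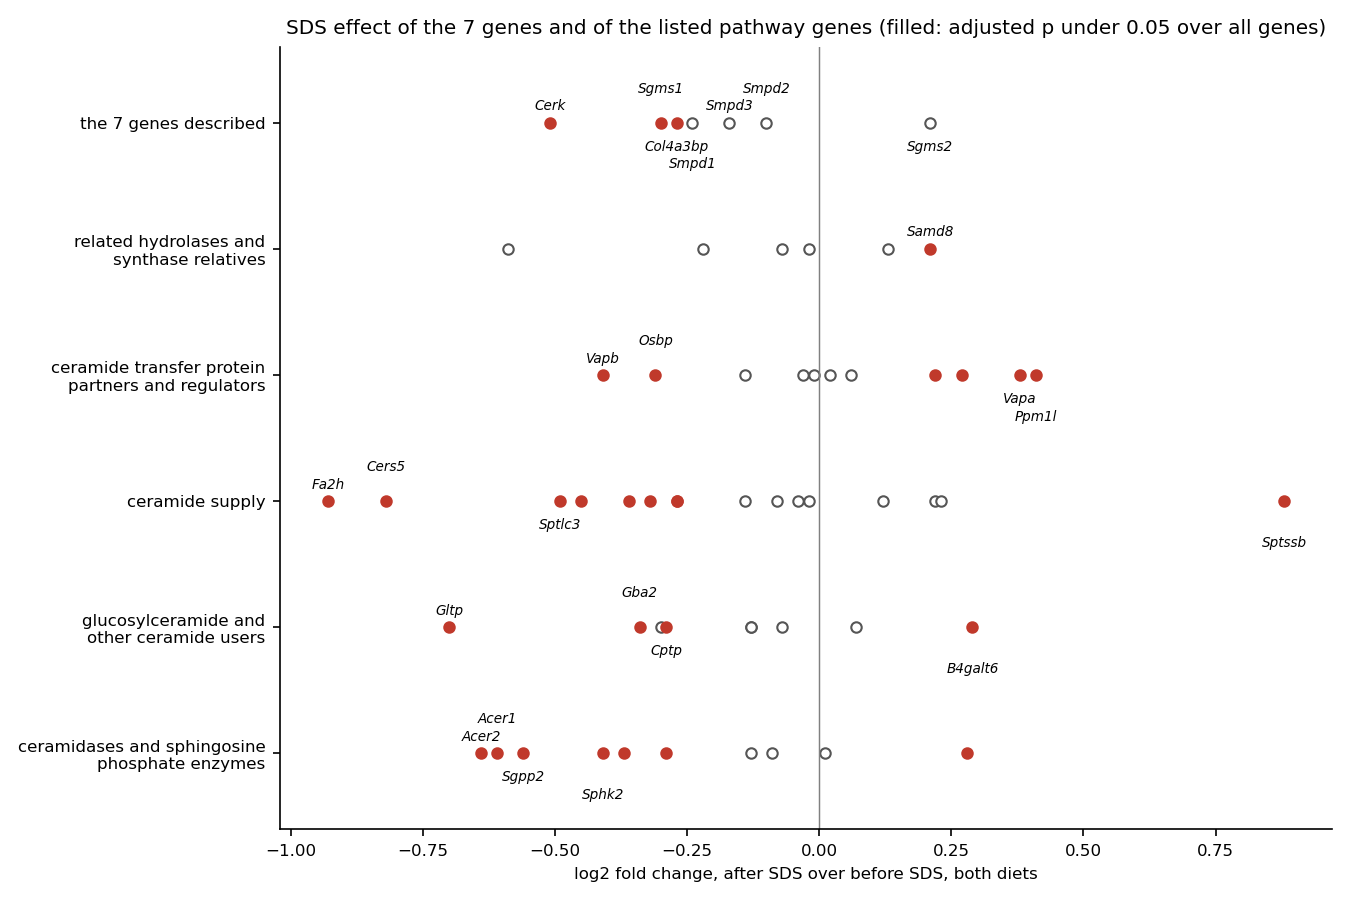
Log2 fold change after SDS over before SDS, both diets together (horizontal axis), of the 7 genes (top row) and of the 5 lists of ceramide pathway genes; each circle is a gene and filled circles have an adjusted p under 0.05 over all genes. Cerk at -0.51 lies within the range of the other lists, which runs from -0.93 for Fa2h to 0.88 for Sptssb.

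The genes whose levels followed each member most closely over the samples were found by Pearson's r with the dye effect taken out, over 14 channels that share 7 arrays and 2 slides; these are descriptions. Cerk was followed most closely by Trim3 (r = 0.97), Phf20 (0.969) and Cdc42se2 (0.966), with SDS log2 fold changes of -0.31, -0.39 and -0.47. Col4a3bp was followed by Grina (0.974), Sh3glb1 (0.964) and Il6ra (0.963), and Sgms1 by 9330167E06 (0.922), Styx (0.916) and Crebl2 (0.91). Sgms2 was followed by Chst11 (0.978), Gch1 (0.956) and Slc7a11 (0.954). The nearest genes of the sphingomyelinases were Teddm3 for Smpd1 (0.984, over 12 channels), Sema4b for Smpd2 (0.936) and Smap2 for Smpd3 (0.947).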

How the data were processed

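RNA of 14 skin samples was measured on 7 two-colour Agilent arrays. The deposited scanner files give each spot's mean intensity and local background by channel; per the file headers Agilent's Feature Extraction software, version 9.1.3.1, made them. The authors also deposited a gene-level table with intensity per gene and a log2 ratio, used as an alternative only. In limma 3.58.1 (R 4.3.3), mean intensities were corrected by normexp (offset 50) and normalised by loess within arrays; control and flagged spots were left out, and a probe was kept if well above background in 3 or more of 14 channels. The brightest probe of a gene gave its tested value. Diet effects came from lmFit and eBayes on the log2 ratios with a dye term. SDS effects came from the separate-channel model after Aquantile normalisation (intraspot correlation -0.00088), fitted by channel so that a missing spot drops its own 2 channels. Residual degrees of freedom were 4 and 9. Adjusted p-values are Benjamini-Hochberg values over 17129 genes. Both fits were tested on simulated data. Probes were named by accession, current or older symbol through RefSeq (22951, 6659 and 3109 probes of 41174); 8455 kept the file's name. Named were all 7 members with every probe, the 3 genes most like each, and up to 4 genes of each pathway list with the largest change among those that passed; in the report, that rule names genes for SDS over both diets only. The members and lists were chosen with earlier results of these data known. The number of arrays limits the precision. Alternatives were other signals, filters, dye and probe rules, normalisations, the deposited table, each array left out, after-SDS array 4 turned, a replicate block and, added later, flagged spots kept.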

Additional observations from a re-analysis of the deposited data

How the results depend on the processing

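The lower Cerk level after SDS over both diets passed in all 18 alternatives run (log2 fold change -0.59 to -0.22, adjusted p from 9.87e-05 to 0.0261), whereas Sgms1 lost its call in 11 and Col4a3bp in 3. None of these alternatives took the dim second Cerk probe alone. Of the 7 genes, 3 passed for SDS over both diets, against 1 with the authors' deposited table and 1 to 3 with an array left out. For SDS in GC-fed skin 1 passed, against 0 with the mean of all kept probes, 2 with after-SDS array 4 turned and 0 to 2 with an array left out. For SDS in control-fed skin 1 passed, against 4 with array 4 turned and 0 to 2 with an array left out; with the mean of all kept probes the 1 that passed was Sgms1 in place of Cerk. The counts for the 3 diet comparisons were 0 in all alternatives run. Estimates smaller than their SE were given no direction; the sign changed in 15 of 111 values for diet after SDS, 15 of 104 before SDS, 22 of 118 for their difference, and 3, 6 and 4 of 125 for SDS over both diets, in GC-fed and in control-fed skin, none of which passed in either setting. With array numbers as a replicate block, Cerk was at -0.52 (adjusted p = 0.00559), Col4a3bp at -0.30 (0.024) and Sgms1 at -0.32 (0.0666), 2 of 7 passing; it moved the count of all genes to 4512, against 5806 without it. The numbers share no stated batch, and same-numbered arrays correlated at 0.046, -0.24 and -0.16. No slide held both SDS groups, so the slide as a block was not run.

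Counts of all genes moved by over 1.5 times as follows. For diet after SDS 1838 passed with array 4 turned and 0 to 924 with an array left out, against 0; for the difference 123 and 0 to 56, against 0, both highest without array 4. For SDS over both diets 3565 to 5288 passed with an array left out, against 5806, the lowest without before-SDS array 1 and next 3824 without array 2. In GC-fed skin 2290 passed, against 1325 with processed signals, 1157 with median centring (388 higher, 769 lower, beside 1068 and 1222), 1346 with the replicate block, 1070 with the deposited table (669 higher, 401 lower; 9.45% of its 11322 genes, beside 13.4%) and 535 to 2719 with an array left out, of which 535, 582 and 980 came without before-SDS array 2, before-SDS array 3 and after-SDS array 3. In control-fed skin 2542 passed, against 1143 with median centring (399 higher, 744 lower, beside 1167 and 1375), 1519 with the replicate block, 1665 with the deposited table (941 higher, 724 lower; 14.7% of 11322, beside 14.8%, so that count is lower through fewer genes tested), 4349 with array 4 turned and 117 to 3664 with an array left out, of which 117, 1477, 1085 and 1517 came without before-SDS arrays 1, 2 and 3 and after-SDS array 1. Where leaving out an array left 1 before-SDS value (Smpd1), that sample is assumed to vary like the others. The cause of the other shifts was not tested.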
